A study of Mus musculus with 2 samples.

Results

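Dividing neuroblasts were taken from single-cell transcriptomes of the mouse subventricular zone as the cells that carried neuroblast transcripts and mitotic transcripts together. Members were chosen by measured expression values: a cell was a member if at most 10% of its UMIs came from mitochondrial genes and its UMIs, scaled to 10000, passed 3 limits. UMIs are random barcodes by which copies of 1 captured RNA molecule are counted as 1. The sum of the neuroblast genes Dcx, Dlx6os1, Sp8, Gad2 and Stmn2 had to reach 10. The sum of the mitotic genes Mki67, Top2a, Cdk1, Nusap1, Ube2c, Cenpf, Hmmr and Ccnb1 had to reach 10 as well, and the sum of the astrocyte genes Slc1a2, Aldoc, Ntsr2, Cldn10 and Gja1 had to stay under 15. These limits found 167 cells among 3937 barcodes, 64 in library 1 and 103 in library 2.

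The subventricular zone lines the lateral ventricles, and its stem cells give rise through transit amplifying progenitors to neuroblasts, which migrate to the olfactory bulb and become interneurons there. Neuroblasts carry the microtubule-binding protein doublecortin (Dcx) and homeodomain factors of the Dlx family, and some of them still divide. In the cycle, S phase genes serve DNA replication, and G2 and M phase genes build the spindle, attach the kinetochores and split the cell.

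The cells came from male C57BL/6 mice, untreated as far as the labels say, aged 2 months (tissue of 4 mice pooled) or 22 months (tissue of 8 mice pooled). Sorting took cells with surface GLAST, the astroglial glutamate transporter that neural stem cells also carry, and selected against O4 (oligodendrocyte lineage), Ter119 (erythroid) and CD45 (leukocyte), and 8000 sort events per library entered the Chromium 3′ droplet workflow. There was 1 library per age, and no label tied the library number on a barcode to an age, and both libraries are therefore named by number alone. The libraries were not replicates of a group, no test was made, and a gene is called higher or lower below only if it differed at least 2-fold the same way within both libraries. All intervals are exact 95% intervals of counting error.

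Library 1 had 1849 barcodes with 10440891 UMIs, and library 2 had 2088 with 13330251, of which 9 and 13 exceeded the mitochondrial limit. Scrublet called 15 and 11 barcodes doublets, none of them a dividing neuroblast. Only 4 barcode sequences occurred in both libraries, and 2 dividing neuroblasts carried one of them. Dividing neuroblasts had a median of 7546 UMIs in library 1 and 7648 in library 2. This lay between the non-dividing neuroblasts (2883 and 3274) and the mitotic cells (11108 and 10598) they are compared with below. Whether a dividing neuroblast's barcode held a neuroblast together with a mitotic cell was not tested beyond the doublet calls.

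Among the cells within the neuroblast and astrocyte limits, 64 of 318 were dividing in library 1 (20.1%, interval 15.9 to 24.96%) and 103 of 389 in library 2 (26.5%, 22.2 to 31.2%). The intervals of both libraries overlapped. Non-dividing neuroblasts, under 3 on the mitotic sum, numbered 209 and 205. A further 45 and 81 cells lay between 3 and 10 and entered neither class. Seen from the other side, dividing neuroblasts made up 23.97% (19.0 to 29.6%) and 18.7% (15.5 to 22.2%) of all cells over the mitotic limit within either class. The rest of these were 203 and 448 mitotic cells under the neuroblast limit.

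For each limit, the cells nearest to it were taken among those that met both other limits. On the neuroblast sum the nearest cells stood at 9.81 below and 10.1 above the limit, with 24 cells within 2 units on each side. On the mitotic sum the nearest stood at 9.85 and 10.5, with 15 cells within 2 units below and 6 above. On the astrocyte sum no cell that met both other limits came within 2 units of this one: the highest member had 11.6, and the 3 cells left out by this limit alone started at 18.3.

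**Figure D1:**
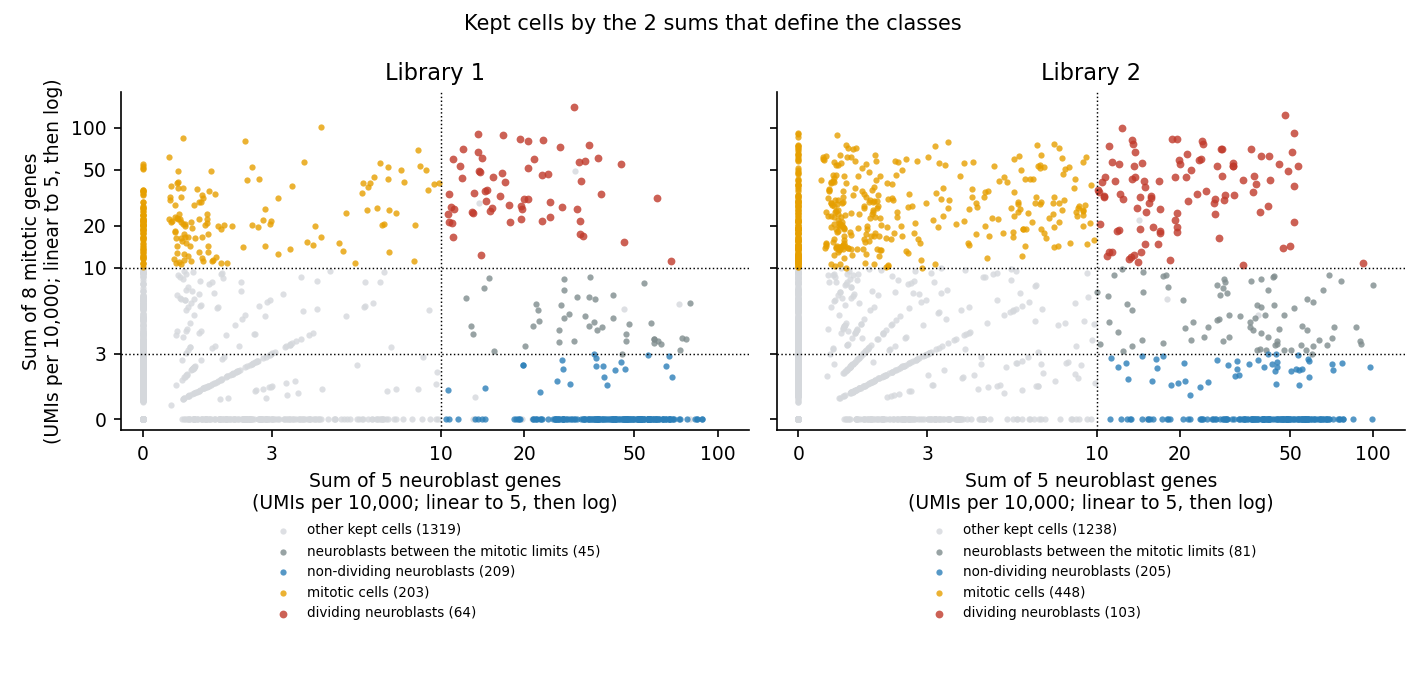
Each point is a kept cell of library 1 (left) or library 2 (right), by its sum of 5 neuroblast genes (x axis) and of 8 mitotic genes (y axis), in UMIs per 10,000 and linear up to 5, then logarithmic; dotted lines are the limits at 10 and 3. The 64 and 103 dividing neuroblasts fill the upper right corner and run without a gap into the mitotic cells to their left and the neuroblasts below.

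Of the 4 label markers Dcx, Nusap1 and Hmmr entered the rule, so their presence is a description. All 4 of Dcx, Dlx5, Nusap1 and Hmmr were detected together in 31 of 64 members from library 1 and in 48 of 103 from library 2, and at least 3 of them in 60 and 85 members. Among mitotic cells 21 of 203 and 46 of 448 had all 4, while the limit of 3 on the mitotic sum nearly bars this in non-dividing neuroblasts. At least 4 of the 5 neuroblast genes were seen in 49 and 81 members and all 8 mitotic genes in 25 and 31, and 1 member, in library 2, rested on a single neuroblast gene. Dlx5, the only label gene outside the rule, had a UMI in 47.6% and 40.0% of members thinned to 2000 UMIs. Oligodendrocyte-like cells, which should lack it and had median depths of 4255 and 5119 UMIs before thinning, showed it in 0 of 97 cells of library 1 and 0 of 8 of library 2 at the same depth, with upper limits of 3.73% and 36.9%. In non-dividing neuroblasts the share was 43.8% and 46.4%, and in mitotic cells 11.0% and 7.42%.

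Within the rule's own genes, both sums sat unevenly. Members had a median of 18.5 and 19.5 on the neuroblast sum against 42.6 and 42.1 in non-dividing neuroblasts. On the mitotic sum their median was 33.5 and 35.3 against 20.7 and 23.5 in mitotic cells. The limits at 10 fix the low ends of these sums and can shift their medians. These medians and the levels of rule genes that follow are therefore a description. Dcx stood at 465 CPM (counts per 1000000 UMIs of a class) in library 1 and 466 in library 2, against 707 and 716 in non-dividing neuroblasts. Stmn2, a stathmin of growing axons, stood at 564 and 705 CPM against 1415 and 1503. Sp8, a zinc finger factor of olfactory interneuron precursors, was level, at 215 and 265 CPM against 230 and 272. Dlx6os1, at 596 and 509 CPM against 1447 and 1159, is antisense to Dlx6, and whether the counting used strand is not given in the sources used here. Hmmr and Nusap1, both spindle proteins, stood at 175 and 187 CPM and at 602 and 511 CPM, against 79.2 and 93.4 and 276 and 334 in mitotic cells.

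Against non-dividing neuroblasts, cell cycle genes were called higher and Dlx1 and Dlx2 differed by well under 2-fold, while some neuronal genes such as Meg3 and Islr2 were called lower. Of 6420 genes outside the rule with at least 20 UMIs over both classes in each library, 336 were called higher (5.23%) and 210 lower (3.27%). The median log2 ratio of all these genes was -0.11 in library 1 and -0.08 in library 2, so values below are relative to a baseline slightly under 0. Of the G2 and M phase list, 65 of 66 tested genes were called higher, with medians of 4.21 and 3.84. Since the mitotic sum divided both classes, this follows from the rule and is a description. The 1 gene not called, the securin gene Pttg1, singled out for this reason after its values were seen, had log2 ratios of 1.53 and 0.87.

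By the smaller of both libraries' ratios, the highest genes outside the rule were Gas2l3, Cenpe, Prc1 and Kif11. Gas2l3, a cytoskeletal linker of the midbody, had 60 UMIs (126 CPM) and 102 UMIs (131 CPM) in dividing neuroblasts and 1 UMI in the non-dividing neuroblasts of each library. Its log2 ratios were 6.44 (3.91 to 11.77) and 6.59 (4.08 to 11.91), the width coming from that single UMI. Prc1, which bundles the microtubules of the central spindle, stood at 410 and 398 CPM against 5.82 and 9.49. The kinesin Cenpe, a kinetochore motor, stood at 208 and 150 CPM against 4.37 and 2.71. Kif11, the kinesin that separates the spindle poles, stood at 179 and 125 CPM against 4.37 and 2.71. The other genes named by the ranking were Spc25, Sgol1, Sgol2a, Tpx2, Fam64a, Cit, Kif20b and Cdca2, each with log2 ratios of at least 4.25 in both libraries.

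The promoters of the tested genes of the G2 and M phase list were searched for short sequence elements. The set searched was the list itself and not a set found by the calls, so the shares describe the list and not these cells. RefSeq promoters (GRCm38.p6, 250 bases before to 50 after the gene start) were found for 50 of the 66 tested G2 and M phase genes, 53 promoters in all. The cell cycle homology region (CHR), read as TTTGAA or TTCGAA on either strand, TTCGAA being its own reverse complement, is the element bound by the DREAM and MuvB complexes that control G2 and M phase genes. It occurred in 39 of the 53 promoters (73.6%), against 14.1% of the 6403 promoters of all tested genes and 19.2% of all 32851 promoters. In the S phase list it occurred in 16.2% of 37 promoters and in the neuroblast identity list in 14.7% of 34. The CCAAT box, on either strand, occurred in 71.7% of the G2 and M phase promoters against 38.5% of those of all tested genes and 37.4% of all promoters. It was also frequent in the S phase list (59.5%), and stood at 41.2% in the neuroblast identity list. A homeodomain site, TAATTA, occurred in 1.89% of the G2 and M phase promoters and 5.88% of the neuroblast identity ones. Its share was 2.33% over all tested genes and 5.29% over all promoters. Windows from 70 bases before to 30 after the start follow for the 4 highest genes by rank, Gas2l3, Cenpe, Prc1 and Kif11, and for the mitotic label markers Hmmr and Nusap1, whether or not they hold an element, 5′ to 3′ on the gene's strand, covering the upstream flank and the first transcribed bases, with CHR and CCAAT letters in capitals.
Gas2l3 (chr10:89443938-89444037, minus strand): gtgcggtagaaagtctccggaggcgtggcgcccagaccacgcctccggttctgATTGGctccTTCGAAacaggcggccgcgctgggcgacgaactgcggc
Cenpe (chr3:135212493-135212592, plus strand): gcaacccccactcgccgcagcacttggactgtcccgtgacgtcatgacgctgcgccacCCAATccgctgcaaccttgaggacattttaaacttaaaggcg
Prc1 (chr7:80294381-80294480, plus strand): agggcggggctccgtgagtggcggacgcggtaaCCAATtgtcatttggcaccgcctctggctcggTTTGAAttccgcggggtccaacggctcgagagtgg
Kif11 (chr19:37376312-37376411, plus strand): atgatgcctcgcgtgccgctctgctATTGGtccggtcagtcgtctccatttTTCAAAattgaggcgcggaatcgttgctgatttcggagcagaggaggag
Hmmr (chr11:40733408-40733507, minus strand): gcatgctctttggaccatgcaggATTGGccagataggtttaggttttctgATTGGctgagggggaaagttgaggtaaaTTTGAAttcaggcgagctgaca
Nusap1 (chr2:119618228-119618327, plus strand): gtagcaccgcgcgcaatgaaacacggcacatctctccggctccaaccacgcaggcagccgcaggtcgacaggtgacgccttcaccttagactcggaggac
With the start counted as 1 and the base before it as -1, the CHR letters began at -8 in Gas2l3, -5 in Prc1, -19 in Kif11 and 9 in Hmmr. The Cenpe window held a CCAAT box at -12 and no CHR letters, and the Nusap1 window held neither. Within this narrower window CHR letters occurred in 26 of the 53 G2 and M phase promoters (49.1%) and in 240 of the 6403 promoters of all tested genes (3.75%). Prc1 has 2 RefSeq starts, of which the upstream one is shown. A match of letters is a description of the sequence and not of binding.

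Of 41 tested S phase genes, 26 were called higher and none lower, with medians of 1.57 and 1.39, against 5.23% higher over all tested genes. Rrm2, a subunit of ribonucleotide reductase, stood at 429 and 363 CPM against 49.5 and 63.7. The checkpoint adaptor Clspn stood at 88.4 and 84.4 CPM against 8.73 and 6.78. Pcna, the sliding clamp of DNA polymerase, stood at 263 CPM in library 1 and 250 in library 2 against 80.1 and 94.9, log2 ratios of 1.72 (1.25 to 2.20) and 1.39 (0.99 to 1.81). Of 39 chromatin genes 12 were called higher, among them the histone variants H2afx (966 and 993 CPM against 74.2 and 77.3) and H2afz (7185 and 6986 against 1600 and 1696). Of 11 tested replication-dependent histone genes 7 were called higher, and their medians were 2.28 and 1.87. Their near-identical copies, and those of the tubulins, may have been split by the counting. With cells thinned to 2000 UMIs only 7 histone genes were tested, and the medians were 0.52 and -0.40.

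Of 24 cyclins, cyclin-dependent kinases and inhibitors, 8 were called higher and none lower, against 5.23% and 3.27% of all tested genes. The 8 genes called higher included 2 inhibitors of the INK4 family: Cdkn2c, at 360 and 280 CPM against 45.1 and 54.2, and Cdkn2d, at 196 and 138 against 42.2 and 42.0. The repressor E2f7 stood at 44.2 and 52.5 CPM against 1.46 and 6.78. Ccnd2, the cyclin D gene of this lineage, was not called. It stood at 3934 and 4302 CPM in dividing neuroblasts and at 4405 and 4656 CPM in non-dividing ones. Cdkn1b, which encodes the inhibitor p27, stood at 213 and 225 CPM against 183 and 168.

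Dlx genes direct the interneuron fate. Dlx1 stood at 804 and 644 CPM against 763 and 617, and its log2 ratio was 0.08 (-0.12 to 0.27) in library 1 and 0.06 (-0.12 to 0.25) in library 2. Dlx2 stood at 1014 and 852 CPM against 1055 and 906, with log2 ratios of -0.06 (-0.23 to 0.11) and -0.09 (-0.24 to 0.07). Dlx5 stood at 360 and 241 CPM against 348 and 305, log2 ratios of 0.05 (-0.24 to 0.34) and -0.34 (-0.63 to -0.06), the second interval lying below 0. Sp9, a zinc finger factor of the same lineage, stood at 1006 and 720 CPM against 1207 and 782, log2 ratios of -0.26 (-0.43 to -0.10) and -0.12 (-0.29 to 0.05). None of the 4 genes was called, and the Dlx1 and Dlx2 intervals included 0 in both libraries.

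Some genes of neuronal differentiation were called lower in dividing neuroblasts, and most were not called. Of 35 neuroblast identity genes outside the rule 7 were called lower and none higher, with medians of -0.79 and -0.63, against 3.27% lower over all tested genes. Of 19 neuronal maturation genes 5 were called lower and 1 higher, and of 18 migration and guidance genes 3 were called lower and none higher. Meg3, a maternally expressed long non-coding RNA, stood at 101 CPM in library 1 and 207 in library 2 against 1828 and 1407, log2 ratios of -4.18 (-4.63 to -3.76) and -2.76 (-3.01 to -2.52). Islr2, which acts in axon extension, stood at 27.4 and 58.9 CPM against 313 and 229. Myt1l, a neuronal zinc finger factor, stood at 14.7 and 19.2 CPM against 119 and 103. Runx1t1, a transcriptional corepressor, stood at 12.6 and 11.5 CPM against 157 and 119. Robo2, the Slit receptor, stood at 52.6 and 56.3 CPM against 166 and 131, and Gad1, which makes GABA, at 82.1 and 39.7 against 178 and 155. The exception among maturation genes was the synaptotagmin Syt4, higher at 33.7 and 42.2 CPM against 13.1 and 6.78, on 16 and 33 UMIs.

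Of 32 tubulin and microtubule genes 4 were called higher and 5 lower, against 5.23% and 3.27% of all tested genes. Tuba1b stood at 2029 and 2137 CPM against 437 and 534, and Tubb4b at 330 and 258 against 78.6 and 55.6. The neuronal tubulin Tubb2b stood at 1309 and 1203 CPM against 2779 and 2566. The neuronal tubulin Tubb3 stood at 678 and 578 CPM against 1290 and 1188, log2 ratios of -0.93 and -1.04, just short of a call in library 1.

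**Figure D2:**
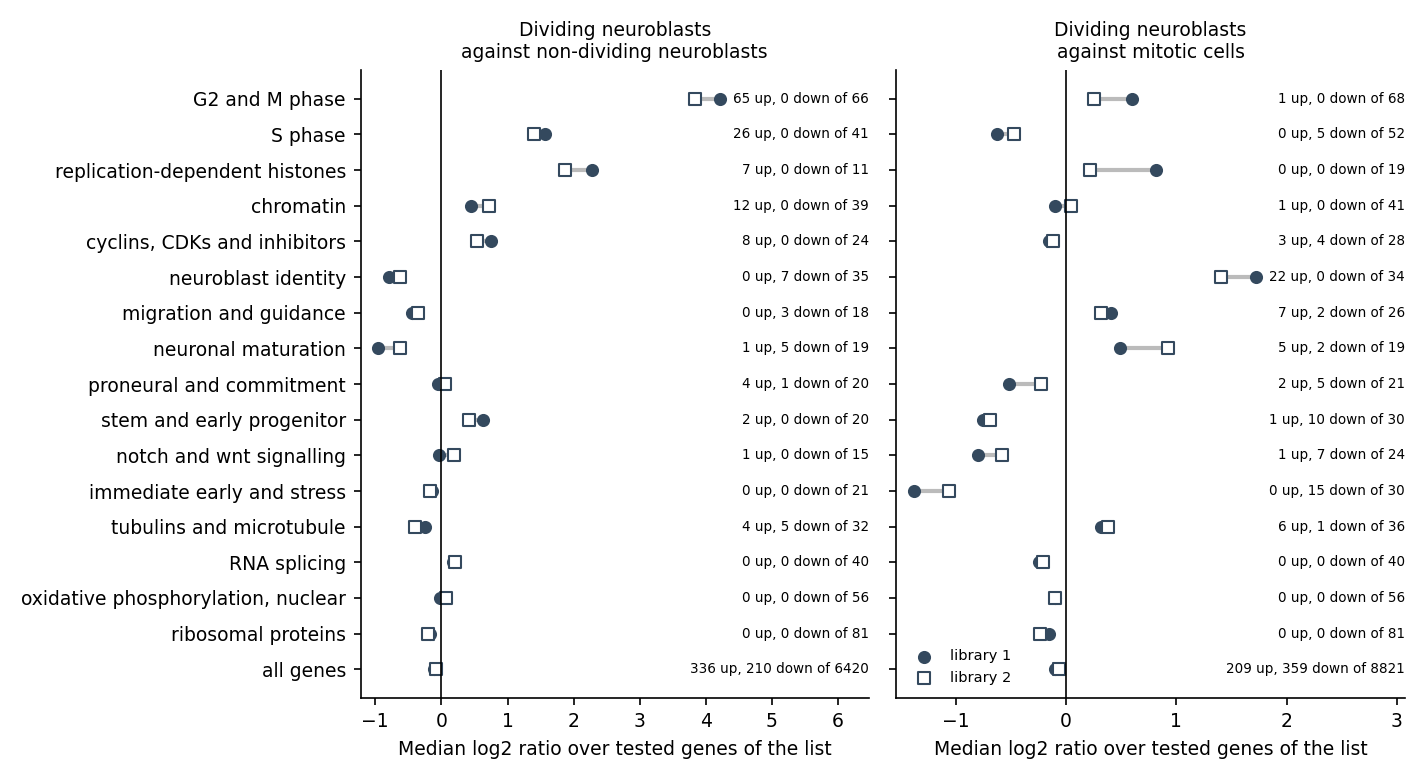
Median log2 ratio of dividing neuroblasts against non-dividing neuroblasts (left) and mitotic cells (right) over the tested genes of each list, for library 1 (filled circles) and library 2 (open squares), with the number of genes called higher and lower at the right edge of each panel. The G2 and M phase list is highest on the left (4.21 and 3.84) and the neuroblast identity list on the right (1.72 and 1.41), where immediate early genes are the lowest of the lists drawn (-1.38 and -1.06).

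Against mitotic cells under the neuroblast limit, many neuroblast identity genes were called higher in dividing neuroblasts, and some progenitor and immediate early genes lower. Of 8821 tested genes, 209 were called higher (2.37%) and 359 lower (4.07%), with medians over all of them of -0.10 and -0.07. Of 34 neuroblast identity genes outside the rule 22 were called higher and none lower, with medians of 1.72 and 1.41. Because the neuroblast sum divided these classes, that direction follows the rule. Tiam2, an activator of Rac, stood at 158 and 93.4 CPM against 15.3 and 10.5. Sp9 stood at 1006 and 720 CPM against 242 and 151, and Tubb3 at 678 and 578 against 124 and 138. Dlx5 had log2 ratios of 2.67 (2.33 to 3.01) and 2.14 (1.86 to 2.42). Dlx1 and Dlx2, in contrast, were present in the mitotic cells at 403 and 399 CPM and at 508 and 537 CPM, so that their ratios, between 0.67 and 1.00, were not called. Of 26 migration and guidance genes 7 were called higher and 2 lower. Robo2 stood at 3.599 and 4.73 CPM in mitotic cells, and Ncam1, a cell adhesion molecule, at 774 and 740 CPM in members against 213 and 176.

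No gene of the stem and early progenitor list entered the rule. The neuroblast sum still divided these classes, so lower progenitor genes in members can follow from the rule, and the counts here are a description. Of 30 stem and early progenitor genes 10 were called lower and 1 higher, with medians of -0.75 and -0.69. Of 24 Notch and Wnt genes 7 were called lower and 1 higher, and of 21 proneural and commitment genes 5 were called lower and 2 higher. The shares over all tested genes were 4.07% lower and 2.37% higher. Helt, a bHLH repressor, had 4 and 5 UMIs in dividing neuroblasts (8.42 and 6.40 CPM) against 132 and 104 CPM in mitotic cells, log2 ratios of -3.97 (-5.85 to -2.60) and -4.02 (-5.65 to -2.78). Hes1, a Notch target, stood at 25.3 and 11.5 CPM against 145 and 119. Hes5, another Notch target, stood at 1536 and 1542 CPM against 3342 and 3399. Egfr, the receptor that marks activated stem cells and transit amplifying cells, stood at 35.8 and 34.5 CPM against 144 and 90.4. With cells thinned to 2000 UMIs the Egfr log2 ratio in library 1 was -0.77 in place of -2.01. The antiproliferative gene Btg2 stood at 71.6 and 87.0 CPM against 400 and 267.

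Markers of astrocytes moved with these genes. The 16 astrocyte markers, all detected, summed to 3195 and 2248 CPM in dividing neuroblasts, 5351 and 3747 in mitotic cells and 45505 and 40877 in cells over the astrocyte limit. Mitotic cells carried no astrocyte limit in the rule. With the same limit of 15 set on them, each list median and named gene of this comparison kept its sign, and 212 genes were called higher and 333 lower. Beyond this limit, the part of astrocyte transcripts in the progenitor genes was not tested.

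Of the D cyclin genes, Ccnd1 was called lower than in mitotic cells and Ccnd2 was not called. Ccnd1 had 3 and 7 UMIs in dividing neuroblasts (6.31 and 8.96 CPM), against 82.3 and 42.0 CPM in mitotic cells, log2 ratios of -3.70 (-6.00 to -2.13) and -2.23 (-3.56 to -1.16). Its partner kinase gene Cdk6 stood at 96.8 and 128 CPM against 403 and 298. Ccnd2 stood at 3934 and 4302 CPM against 3112 and 3237. Non-dividing neuroblasts had Ccnd1 at 11.6 and 9.49 CPM, within the intervals of the dividing ones.

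Immediate early and stress genes had list medians of -1.38 and -1.06 against mitotic cells, with 15 of 30 called lower and none higher. Over all tested genes 4.07% were called lower and 2.37% higher. Egr1 stood at 316 and 215 CPM against 1509 and 1180, and Fosb, Arc and Klf4 were called lower on at most 6 UMIs in dividing neuroblasts. Against non-dividing neuroblasts none of 21 such genes was called, and Egr1 stood at 211 and 174 CPM there. That count is near the shares over all tested genes, 5.23% called higher and 3.27% lower. These genes also respond to tissue dissociation, and that part was not tested.

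Cycle genes were compared between both dividing classes next. Of 52 S phase genes, 5 were called lower than in mitotic cells and none higher, with medians of -0.63 and -0.48, against 4.07% lower over all genes. Mcm2, a subunit of the replicative helicase, had 15 and 13 UMIs (31.6 and 16.6 CPM) against 89.1 and 78.8 CPM; its library 2 log2 ratio of -2.24 was -0.90 after thinning. Of 68 G2 and M phase genes, 1 was called higher, the cohesin protector Sgol2a (204 and 132 CPM against 67.9 and 63.7), with medians of 0.60 and 0.25. That count is no higher a share than the 2.37% of all genes called higher. After thinning to 2000 UMIs the median member held 8 S phase UMIs in both libraries and 45 and 41 G2 and M phase UMIs, against 12 and 12 and 31 and 33 in mitotic cells. More S phase than G2 and M phase UMIs were found in 2 of 63 members (3.17%, interval 0.387 to 11.0%) and 3 of 100 (0.623 to 8.52%), against 7.50% and 8.31% of mitotic cells, and these intervals overlapped. The 8 genes of the mitotic sum favour late phases, and how many cells of early S phase the rule leaves out was not tested.

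**Figure D3:**
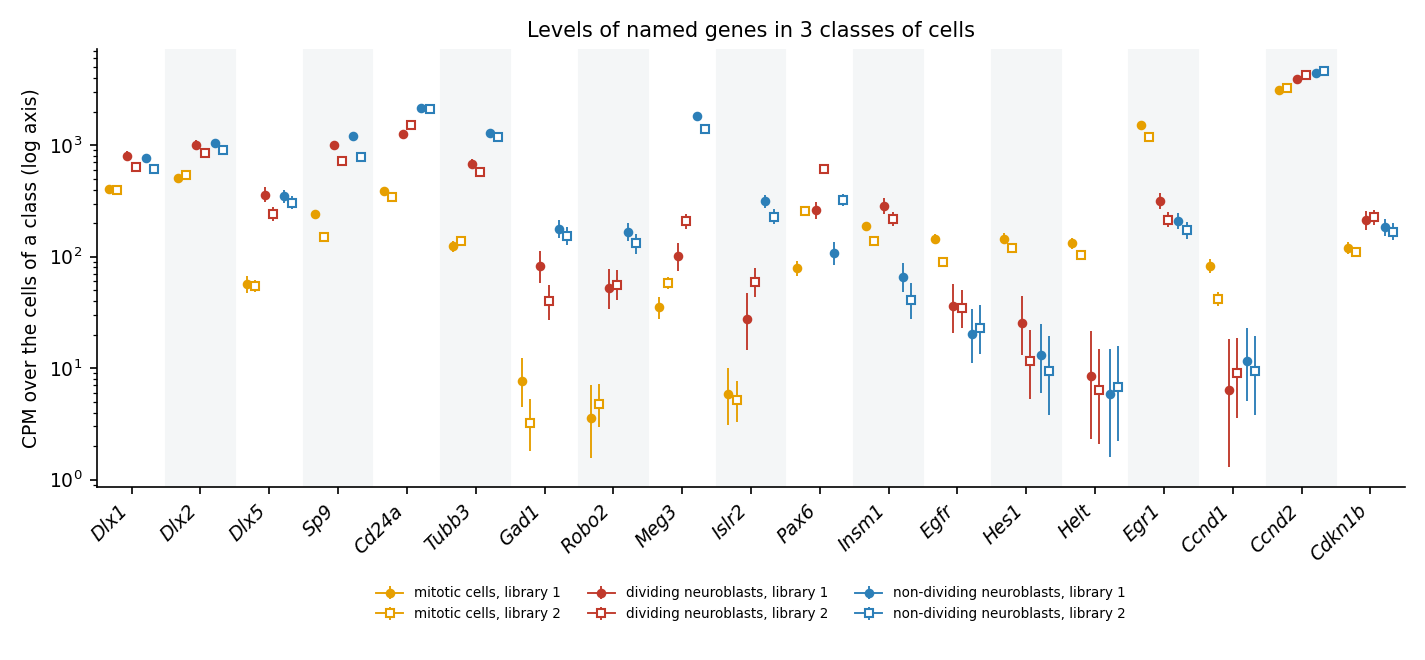
CPM of 19 named genes (log axis) in mitotic cells (orange), dividing neuroblasts (red) and non-dividing neuroblasts (blue), for library 1 (filled circles) and library 2 (open squares), with exact 95% Poisson intervals. Dlx1 and Dlx2 overlap between red and blue, Meg3 and Islr2 climb from red to blue, Egr1, Hes1, Helt and Ccnd1 drop from orange to red, and within each library Insm1 and Pax6 are highest in red.

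For some genes the members stood between both other classes. Of 6341 genes tested in both comparisons, dividing neuroblasts lay between the other classes in both libraries for 1953 (30.8%). Of 34 neuroblast identity genes tested in both comparisons 25 did so, as did 11 of 16 maturation genes, 9 of 17 migration and guidance genes, 9 of 20 stem and early progenitor genes and 8 of 19 proneural and commitment genes. The position was not limited to lineage genes. It was also held by 33 of 41 S phase genes, 19 of 32 tubulin and microtubule genes and 21 of 39 chromatin genes, but by 2 of 66 G2 and M phase genes. The neuroblast sum of the rule separated mitotic cells from both neuroblast classes, so these counts are a description. Gad1 stood at 7.65 and 3.23 CPM in mitotic cells, 82.1 and 39.7 in members and 178 and 155 in non-dividing neuroblasts.

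A small set stood above both other classes. At 1.5-fold in both libraries, a threshold chosen after the values were seen, 47 of the 6341 genes (0.741%) did so and 41 (0.647%) stood below both. Of the 47, 13 were among the 66 G2 and M phase genes tested in both comparisons, Cenpa and Cdc25b included. The mitotic limits set members above non-dividing neuroblasts for such genes. Members also had higher medians on the rule's mitotic sum than mitotic cells (33.5 and 35.3 against 20.7 and 23.5), so this count is a description. The neuronal commitment gene Insm1, a zinc finger factor of dividing neuronal precursors, stood at 286 and 219 CPM in dividing neuroblasts, 188 and 138 in mitotic cells and 65.5 and 40.7 in non-dividing neuroblasts. Its log2 ratios against mitotic cells were 0.61 (0.32 to 0.89) and 0.66 (0.41 to 0.91). Pax6, which specifies dopaminergic interneurons of the olfactory bulb, stood at 261 and 606 CPM, against 78.7 and 256 in mitotic cells and 108 and 323 in non-dividing neuroblasts. Cdkn2d, the INK4 inhibitor named above, stood at 80.5 and 89.95 CPM in mitotic cells. Arl6ip1, a membrane-shaping protein of the endoplasmic reticulum, stood at 903 and 752 CPM against 248 and 398 in mitotic cells and 156 and 131 in non-dividing neuroblasts. Among genes in no list, singled out after their values were seen, were Ctxn3, Peg10, Sall1 and Nr2f1. Ctxn3 stood at 42.1 and 25.6 CPM, on 20 UMIs in each library, against at most 9.90 in either other class.

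Slc1a3, which encodes the GLAST antigen of the sort and was looked up after the other values, stood at 238 and 293 CPM in dividing neuroblasts. Non-dividing neuroblasts had 150 and 165 CPM, and mitotic cells 409 and 425. The sort for GLAST can shape how many neuroblasts of either kind were captured, so the shares above hold for the sorted cells.

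The members differed among themselves along the mitotic sum. It was 10 to under 20 in 6 and 24 cells, 20 to under 50 in 39 and 47, and 50 or more in 19 and 32. The S phase list stood at 5201 and 6236 CPM in the lowest range, 5883 and 5479 in the middle one and 2616 and 2714 in the highest. Pcna stood at 378 and 398, then 342 and 292, then 105 and 104 CPM. Cdc20, the activator of the anaphase-promoting complex, picked after its values were seen, went the opposite way, with 31.5 and 89.0, then 107 and 105, then 505 and 415 CPM. Dlx2 stood at 788 and 825, 989 and 831, and 1102 and 896 CPM, with overlapping intervals between neighbouring ranges in each library. The ranges are cut on the rule's own mitotic sum, so the values are a description. The lowest range of library 1 rests on 6 cells, and cells of 1 library are not replicates.

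Along the neuroblast sum, 37 and 56 members lay at 10 to under 20 and 25 and 40 at 20 to under 50, with only 2 and 7 above that. From the first of these ranges to the second, Tubb2b went from 818 and 708 CPM to 2023 and 1768, and Tubb3 from 545 and 462 to 901 and 738. The stem and early progenitor list went from 5354 and 4988 to 4278 and 4482 CPM. Pcna went from 299 and 312 to 192 and 170 CPM, with overlapping intervals in library 1, and the S phase list from 5223 and 5247 to 3842 and 4074. The intervals of both lists did not overlap between these ranges in either library, but they hold counting error only and not the spread between cells. Because the ranges are cut on the rule's own neuroblast sum, these values too are a description, and cells of 1 library are not replicates.

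**Figure D4:**
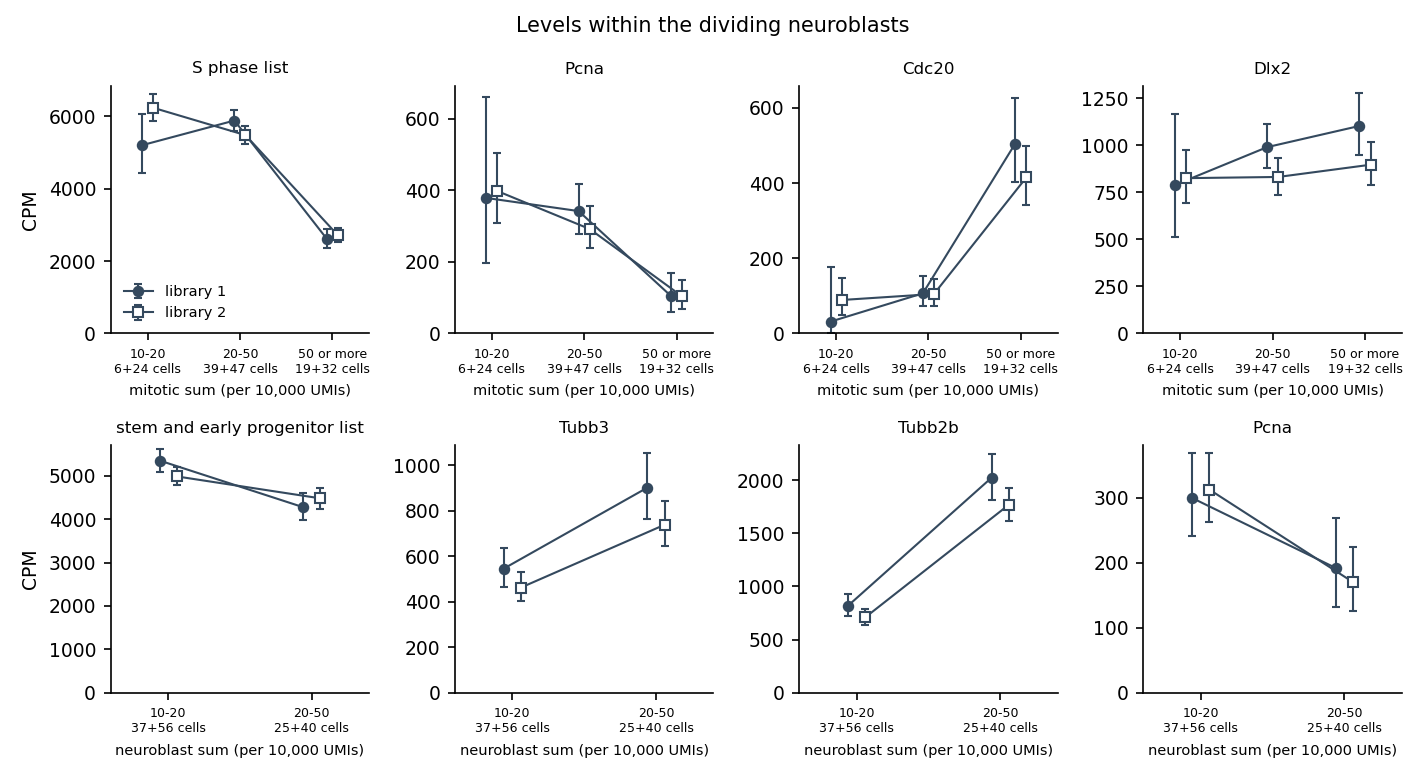
CPM in dividing neuroblasts by range of the mitotic sum (top row: S phase list, Pcna, Cdc20, Dlx2) and of the neuroblast sum (bottom row: stem and early progenitor list, Tubb3, Tubb2b, Pcna), with exact 95% Poisson intervals, library 1 as filled circles and library 2 as open squares and the cells per range (library 1 + library 2) under the axis. The S phase list and Pcna fall and Cdc20 climbs from the middle to the highest range of the mitotic sum, and Tubb3 and Tubb2b climb along the neuroblast sum.

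Between both libraries, most genes of dividing neuroblasts differed by less than 2-fold. Of 6603 genes with at least 20 UMIs over both libraries, 154 were at least 2-fold higher in library 1 (2.33%) and 186 at least 2-fold lower (2.82%), and the median log2 ratio was 0.01. The Dcx log2 ratio was 0.00 (-0.25 to 0.24), and none of the 31 tubulin and microtubule genes, 40 splicing genes or 81 ribosomal protein genes tested passed 2-fold. Of the 14 genes named for this comparison Pax6 had the most UMIs, 124 in library 1 and 474 in library 2, and its log2 ratio was -1.22 (-1.51 to -0.93). It was lower in library 1 in mitotic and non-dividing cells as well, at 78.7 against 256 and 108 against 323 CPM. The calcium sensor gene Ncs1 (21.0 against 65.3 CPM), the AMPA receptor subunit gene Cnih2 (21.0 against 67.8) and the Sox factor Sox6 (31.6 against 81.9) were lower in library 1 on 10 to 15 UMIs there. After thinning, the Cnih2 log2 ratio was -0.60 in place of -1.69.

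Higher in library 1 were Rcan2, a calcineurin regulator (208 against 49.9 CPM), Mid1, a microtubule-bound ubiquitin ligase (187 against 57.6), the interferon-induced gene Ifi27 (116 against 34.5) and Cdkn1a, which encodes the inhibitor p21 (75.8 against 24.3). Rcan2, Mid1 and Ifi27 differed the same way in the other classes: Rcan2 stood at 221 against 84.0 CPM in non-dividing neuroblasts and 186 against 55.3 in mitotic cells, and Mid1 at 199 against 50.2 and 280 against 58.3. Cdkn1a stood at 16.01 against 20.3 CPM in non-dividing neuroblasts and at 171 against 60.3 in mitotic cells, and its log2 ratio between libraries of 1.64 in members was 0.61 after thinning. Of the 7 interferon and antigen presentation genes tested, 2 passed 2-fold, both higher in library 1, against the 2.33% of all genes. On the scale of the rule's limits, the sum of this whole list had a median of 4.77 in the members of library 1. The highest member there had 94.7. In library 2 the median was 3.12 and the highest member had 9.24. How much of the difference between libraries came from the highest member of library 1 was not tested.

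Of the genes named here, the myelin gene Mbp had the highest ratio (82.1 against 19.2 CPM). The 10 oligodendrocyte markers, all detected in both libraries, summed to 345 CPM (294 to 402) in the dividing neuroblasts of library 1 and 78.0 (59.7 to 100) in those of library 2. The sums were close to those of non-dividing neuroblasts, 376 and 82.7 CPM, and stood at 60428 and 81684 CPM in oligodendrocyte-like cells, of which library 1 had 104 and library 2 had 9. Oligodendrocyte precursor markers summed to 48.4 and 39.7 CPM in the members. Microglial, ependymal, endothelial and striatal neuron markers summed to at most 27.4 CPM in the members of either library, and the 5 erythroid markers were at 0. The part of free oligodendrocyte RNA in the difference between both libraries was not tested.

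**Figure D5:**
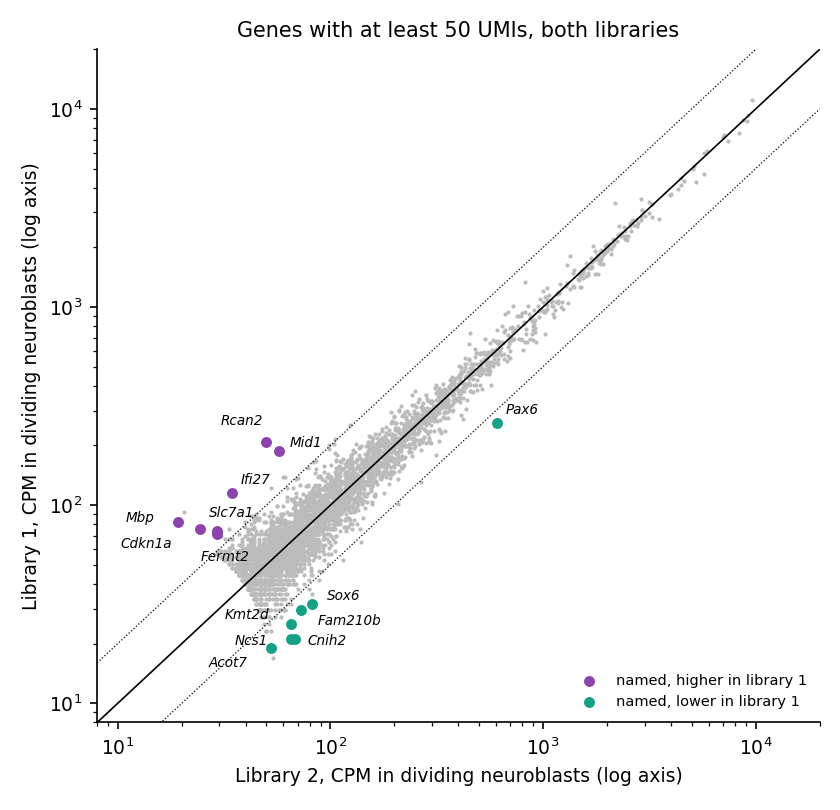
CPM of dividing neuroblasts in library 2 (x axis) and library 1 (y axis), both logarithmic, for the 3781 genes outside the rule with at least 50 UMIs over both libraries; the solid line marks equal levels and dotted lines 2-fold differences. Named genes are coloured: Pax6 lies below the lower dotted line at 606 and 261 CPM, and the myelin gene Mbp lies above the upper one.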

How the data were processed

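The authors deposited 1 matrix of UMI counts, whole numbers that were not normalized, with genes and the barcodes of both libraries. Cell Ranger 2.0.0 and the builds GRCm38.p3 and mm10 are listed in the submitters' processing notes. For alignment settings, strand, cell calling and the merging of libraries, the sources used here say nothing. Members, comparison classes and gene lists were chosen with earlier results of these data known. Classes were set by the limits in the text within each barcode suffix, and UMIs were summed over a class and library and scaled to CPM. Ratios have exact conditional intervals of 2 Poisson counts, levels exact Poisson intervals and shares Clopper-Pearson intervals, all at 95% and for counting error only. A gene at 0 in 1 class was set to 3 counts, which makes its ratio a bound. Genes needed 20 UMIs over both classes in each library (50 for the genes named by rank). Named were the 12 highest and 12 lowest called genes of each class comparison by the smaller of both libraries' absolute log2 ratios, the 8 highest and 8 lowest between libraries, up to 4 called members (otherwise the 2 with most UMIs) of each list, the rule genes and lineage and cycle genes fixed by name. Some genes the rule picks are not reported here, and were not replaced. The text gives those that show each pattern, and genes above both other classes were named after their values were seen. No test was made, since each age had 1 library and no label ties a suffix to an age. The ratio procedure was tested on simulated counts. Alternatives changed the limits, doublet and depth filters, thinning to 2000 UMIs, scaling, UMI minimum and fold. Tools were Python 3.11.15, numpy 2.4.6, scipy 1.17.1, pandas 2.3.3, scanpy 1.11.5 (Scrublet, expected rate 1.5%) and matplotlib 3.10.9, with seed 1.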

Additional observations from a re-analysis of the deposited data

How the results depend on the processing

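No paired analysis was possible because each age had 1 library, so the shared replicate number 1 pairs nothing. The dividing share of neuroblasts left its interval in library 2 with a mitotic limit of 20 (20.3%) and after thinning to 2000 UMIs (34.1%), and in both libraries with a neuroblast limit of 20 (10.4% and 16.2%). Genes called higher and lower against non-dividing neuroblasts numbered 143 and 126 after thinning, 169 and 86 with at least 50 UMIs, 771 and 634 with no filter beyond 1 UMI and 590 and 637 at 1.5-fold, and 201 were higher with a neuroblast limit of 20. Against mitotic cells they numbered 122 and 170 without the deepest 10% of barcodes, 83 and 165 after thinning, 120 and 202 with at least 50 UMIs and 564 and 966 at 1.5-fold, and 1870 were higher with no filter. Between libraries, 97 were higher in library 1 with a neuroblast limit of 20 and 93 after thinning. Higher and lower counts there were 23 and 27 with at least 50 UMIs, 2188 and 765 with no filter and 628 and 600 at 1.5-fold. Fewer genes reach the minimum after thinning or at 50 UMIs, and without a filter a gene at 0 enters at 3 counts. The other 50 shares and counts stayed within their interval or 1.5 times. Of 1041 values of called named genes under the alternatives, 1 changed sign, Fam210b between libraries after thinning (0.19). Among list medians that passed 2-fold, 1 of 84 values changed sign, the replication-dependent histones in library 2 (-0.40), with fewer genes tested after thinning. Under 2-fold, 35 of 664 list medians and 26 of 397 named gene values changed sign. In all, 15 values of called named genes fell under 2-fold and outside their interval. Depth limits genes on few UMIs, such as Helt, Ccnd1 and Tcf7l2 in dividing neuroblasts.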
